A study of Mus musculus with 24 samples.

Results

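The methylation of 36 genes for calcium channels, sodium channels, pacemaker channels and intracellular calcium release channels was examined in the dentate gyrus, a region of the mouse hippocampus. The members were chosen by gene name, and a CpG counted as a member CpG when it lay inside one of these genes or within 2000 bases of it in the GENCODE M21 annotation on mm10. By this rule 2626 of the 762162 CpGs in the deposited methylation table belonged to the set, and 35 of the 36 genes held at least 1 of them. Scn3b held none.

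Reduced representation bisulfite sequencing (RRBS) cuts DNA at the sequence CCGG, so it reads mainly CpG-rich stretches, and bisulfite then turns unmethylated cytosines into uracil while methylated ones stay. Tissue was dissected from single female C57BL/6JRj mice of 3 groups. Young STD mice (n = 5) were 1.5 months old and came from standard cages. Aged STD mice (n = 7) were 14 months old and had lived in standard cages. Aged ENR mice (n = 7) were also 14 months old and had been kept in environmental enrichment, a large cage with changing objects shared by many mice, from 1.5 months of age. A further 5 labelled samples of young enriched mice were not analysed here. The tissue holds granule neurons with glia and other cells, so a change in the share of a cell type and a change within cells cannot be told apart from these percentages.

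Voltage-gated calcium channels are built around a pore-forming alpha1 subunit, which opens when the membrane depolarizes. Auxiliary alpha2delta and beta subunits carry the pore to the membrane and tune its opening. Sodium channel alpha subunits form the pore that drives the action potential, and their beta subunits set its kinetics and position. HCN channels open on hyperpolarization and carry the pacemaker current, while ryanodine and IP3 receptors release calcium from the endoplasmic reticulum. In vertebrate genomes most CpG-rich promoters are free of methylation and most of the remaining CpGs are methylated, in gene bodies as well as between genes.

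Sequences are given first for an unmethylated promoter and for stretches that departed from this contrast, as the plus strand of GRCm38 from 5′ to 3′, with the measured CpGs in capitals. The first is a stretch upstream of the Hcn4 start, within 1000 bases of it, shown as an unmethylated promoter. The next 3 are unmethylated although they lie in coding exons or an intron far from a start, namely in exon 19 of the 47 exons of Cacna1a, in exon 91 of the 106 exons of Ryr1 and in an intron of Scn4b. The Scn8a stretch begins in the coding part of exon 2 of 27, beside an internal transcript start, and belongs to the one run of 5 or more CpGs wholly inside a promoter that had intermediate methylation. The Scn3a stretch is intronic and sparse in CpGs.
Hcn4 chr9:58822621-58822860: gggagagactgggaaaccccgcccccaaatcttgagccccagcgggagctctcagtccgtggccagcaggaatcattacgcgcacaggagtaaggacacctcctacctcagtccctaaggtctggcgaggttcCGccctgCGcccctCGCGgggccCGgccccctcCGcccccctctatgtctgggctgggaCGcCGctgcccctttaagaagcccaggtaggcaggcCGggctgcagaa
Cacna1a chr8:84559181-84559459: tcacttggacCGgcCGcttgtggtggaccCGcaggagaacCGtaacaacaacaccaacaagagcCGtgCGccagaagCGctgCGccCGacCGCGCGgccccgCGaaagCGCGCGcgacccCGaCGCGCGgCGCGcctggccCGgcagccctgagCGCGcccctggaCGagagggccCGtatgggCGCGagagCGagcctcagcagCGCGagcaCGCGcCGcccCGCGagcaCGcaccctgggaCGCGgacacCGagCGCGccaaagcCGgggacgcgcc
Ryr1 chr7:29020036-29020131: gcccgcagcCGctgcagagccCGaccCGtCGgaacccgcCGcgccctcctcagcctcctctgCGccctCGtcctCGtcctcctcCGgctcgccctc
Scn4b chr9:45145869-45146056: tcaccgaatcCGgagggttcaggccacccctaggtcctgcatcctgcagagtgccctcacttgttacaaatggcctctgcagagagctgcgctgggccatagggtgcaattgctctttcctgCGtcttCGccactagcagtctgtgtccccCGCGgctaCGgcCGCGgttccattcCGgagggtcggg
Scn8a chr15:100936325-100936468: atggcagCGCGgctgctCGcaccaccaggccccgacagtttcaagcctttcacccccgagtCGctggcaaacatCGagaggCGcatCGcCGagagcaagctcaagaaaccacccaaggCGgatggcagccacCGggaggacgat
Scn3a chr2:65471690-65471860: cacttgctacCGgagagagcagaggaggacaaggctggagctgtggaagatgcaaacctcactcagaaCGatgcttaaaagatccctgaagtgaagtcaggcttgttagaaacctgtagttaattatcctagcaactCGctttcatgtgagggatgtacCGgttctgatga

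Promoters of the channel genes were almost free of methylation and their bodies were not. A promoter was taken as the CpGs within 1000 bases of an annotated transcript start of the gene, and a body as the other CpGs inside the gene. The 955 promoter CpGs had a mean level of 2.76% and a median of 0.476%, and 929 of them lay below 20%. The 1544 body CpGs had a mean level of 50.7%, with 491 below 20% and 528 above 80%. The 377 exonic and the 1167 intronic CpGs of the bodies were alike in mean level, at 49.3% and 51.2%. Over all protein-coding genes the mean was 3.63% in promoters and 42.6% in bodies. The 127 CpGs outside the genes and more than 1000 bases from their starts had a mean of 16.1%.

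**Figure D1:**
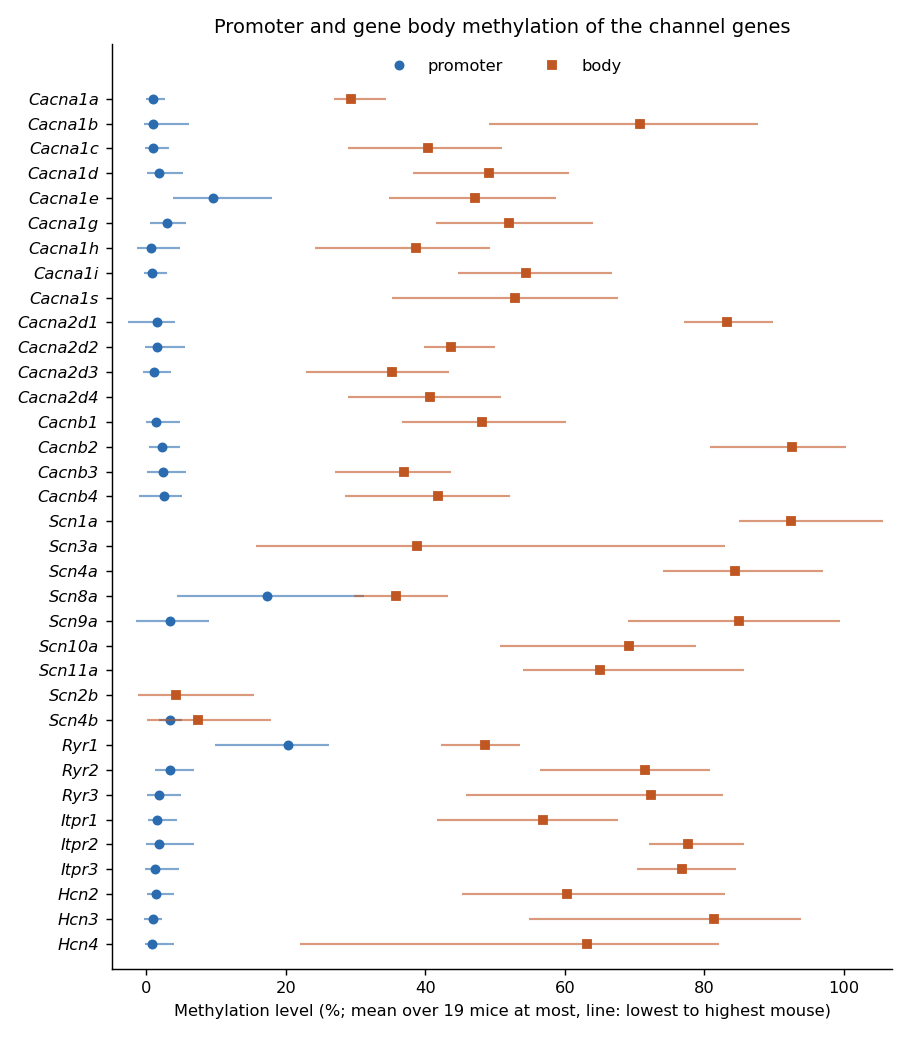
Each row is a gene, with the promoter (circle) and body (square) level in percent as the mean over the mice with a value, and lines from the lowest to the highest mouse. Promoters sit near 0 except for Ryr1, Scn8a and Cacna1e, while bodies run from 4.24% in Scn2b to 92.6% in Cacnb2.

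Level was low up to 1000 bases from a start and higher beyond. Within 250 bases the member CpGs averaged 2.56%, from 250 to 500 bases 2.48%, from 500 to 1000 bases 3.35%, from 1000 to 2000 bases 15.7%, between 2000 and 5000 bases 26.2%, between 5000 and 20000 bases 54.2% and beyond 20000 bases 52.2%. The corresponding means over all protein-coding genes were 2.62%, 3.51%, 6.26%, 15.6%, 27.6%, 39.95% and 47.8%. The most CpG-dense parts of the bodies were low as well. Member body CpGs with more than 8 CpGs per 100 bases around them averaged 6.86% (n = 106), against 49.1% from 4 to 8 (n = 293), 53.8% from 2 to 4 and 56.4% with at most 2 (n = 619). Over all protein-coding genes these means were 5.32%, 28.2%, 50.2% and 59.1%. Part of the 106 member CpGs lay in the Cacna1a exon printed above, with 53 measured cytosines, so their mean rests in part on 1 exon.

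**Figure D2:**
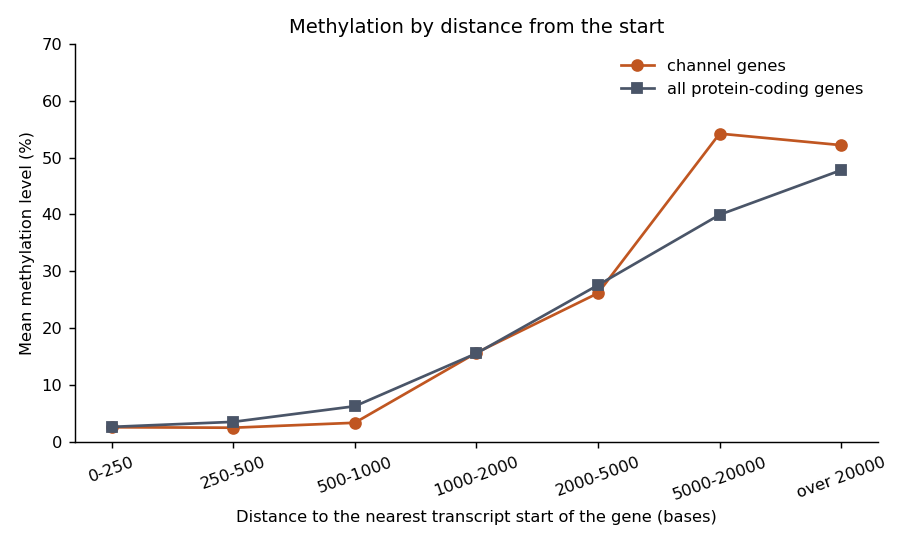
The mean methylation level in percent is plotted against the distance in bases to the nearest transcript start, for the channel genes (circles) and all protein-coding genes (squares). Both curves reach at most 6.26% within 1000 bases. The channel genes climb to 54.2% between 5000 and 20000 bases and stand at 52.2% past that, and all protein-coding genes climb to 47.8%.

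Values for a gene in a mouse are the mean over its CpGs after centring each CpG on the mean of the group means, so a mouse that lacks some CpGs is not shifted by their level, and a value can pass below 0% or above 100%. With at least 3 CpGs, 27 promoters and 35 bodies could be measured. Of the 27 promoters, 24 averaged below 4%. The calcium channel alpha1 promoters ranged from 0.705% in Cacna1h to 9.52% in Cacna1e, and their bodies from 29.4% in Cacna1a to 70.8% in Cacna1b. Cacna1a, Cacna1b and Cacna1e encode the pores of presynaptic P/Q-, N- and R-type channels, Cacna1c and Cacna1d those of L-type channels, and Cacna1g, Cacna1h and Cacna1i those of low-threshold T-type channels. The L-type bodies stood at 40.4% ± 5.58 (SD, n = 19) for Cacna1c and 49.1% ± 5.11 for Cacna1d. The T-type bodies stood at 52.1% ± 6.52 for Cacna1g, 38.6% ± 6.72 for Cacna1h and 54.4% ± 6.08 for Cacna1i. Cacna1s, the skeletal muscle L-type pore, had a body of 52.9% ± 9.11 and no promoter CpG, and 37 of its 48 CpGs lay outside the gene at the promoter of Ascl5.

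The auxiliary subunits of the calcium channels spanned a wide range in the body. Cacna2d1, a subunit bound by gabapentin, reached 83.3% ± 3.03 (SD, n = 19), whereas Cacna2d2, Cacna2d3 and Cacna2d4 had 43.7%, 35.2% and 40.7%. Among the beta subunits Cacnb2 had the highest body of the set, at 92.6% ± 5.72 (SD, n = 17), and Cacnb3 the lowest of its family, with Cacnb1 at 48.1% and Cacnb4 at 41.8%. No promoter CpG was measured for Cacna2d4. The promoters of these 2 families that could be measured lay between 1.11% and 2.53%.

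Sodium channel genes were less well covered at their starts. No promoter CpG was measured for Scn1a, Scn3a, Scn4a, Scn10a and Scn11a, and 2 for Scn2b. The alpha subunit bodies ran from 35.9% in Scn8a to 92.5% in Scn1a, with the peripheral sensory neuron channels Scn10a and Scn11a at 69.2% and 65.0%, the skeletal muscle channel Scn4a at 84.5%, Scn9a at 85.0% and Scn3a at 38.8%. The beta subunits were the exception, with bodies of 4.24% in Scn2b (5 CpGs) and 7.44% in Scn4b (11 CpGs). These were the 2 bodies of the set below 20%, and 6 bodies lay above 80%.

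The release channels and HCN channels had methylated bodies throughout. Ryr1, the skeletal muscle ryanodine receptor, stood at 48.5%, and Ryr2 and Ryr3 at 71.5% and 72.4%. The IP3 receptor bodies were at 56.8% for Itpr1, the main neuronal isoform, and at 77.7% and 76.8% for Itpr2 and Itpr3. Hcn2, Hcn3 and Hcn4 bodies were at 60.4%, 81.4% and 63.2%, over promoters of 1.44%, 0.993% and 0.821%.

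Body minus promoter was positive in 27 of 27 genes at an adjusted p under 0.05 (limma on the differences by mouse, Benjamini-Hochberg adjustment over all 8919 genes tested). The same call was made for 87.3% of all genes tested, so the sign alone does not set the channel genes apart. The median difference was 49.1 points in the channel genes and 44.5 points over all genes. Cacnb2 had the largest at 90.4 ± 1.43 points (SE, n = 17 mice), followed by Scn9a at 82.0, Cacna2d1 at 81.8 and Hcn3 at 79.7. In this order their bodies held only 11, 6, 23 and 10 measured CpGs, and Hcn3 had a value in 13 mice. The smallest were 4.01 ± 1.12 in Scn4b (adjusted p = 0.002035 with limma), 18.6 ± 1.82 in Scn8a, 28.3 ± 1.25 in Ryr1 and 28.4 ± 0.687 in Cacna1a. With promoters cut to 500 bases the Scn4b difference turned to -3.03 points, Cacnb2 came to 35.97 and Ryr1 to 47.5, since the CpGs between 500 and 1000 bases then joined the body.

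The 3 promoters above 4% were those of Ryr1, Scn8a and Cacna1e, with 20.3% ± 4.39 (SD, n = 17), 17.3% ± 7.16 (n = 19) and 9.52% ± 3.12 (n = 19). Among the 4 smallest differences, Ryr1 and Scn8a thus had a higher promoter than other members, and Scn8a, Cacna1a and Scn4b had bodies of 35.9%, 29.4% and 7.44%. Cacna2d3, Cacnb3 and Cacna1e came next, at 34.1, 34.6 and 37.6 points.

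By mouse, the highest promoters did not separate the groups. The Ryr1 promoter had 21.8%, 22.4%, 19.5% and 26.2% in the 4 Young STD mice measured, from 16.4% over 20.3% to 25.2% in 6 Aged STD mice and from 9.83% over 19.4% to 25% in Aged ENR mice. The Scn8a promoter had 17.4%, 23.5%, 19.3%, 4.39% and 23.6% in Young STD mice, from 8.38% over 15.7% to 24.7% in Aged STD mice and from 6.36% over 20.8% to 31.3% in Aged ENR mice. The ranges overlapped in both genes. The Cacna1e promoter had 8.001%, 10.4%, 7.78%, 12.3% and 9.52% in Young STD mice, from 3.76% over 9.66% to 14.3% in Aged STD mice and from 6.07% over 9.52% to 17.98% in Aged ENR mice. The Scn4b promoter, next in level, had 3.31%, 2.99%, 2.23%, 3.87% and 4.64% in Young STD mice, with 2.54% to 4.14% in Aged STD and 1.87% to 5.10% in Aged ENR mice. The differences with age were -1.35, -2.37, -0.669 and 0.120 points in this order, and those with housing -2.78, 3.63, 1.09 and -0.190 points (adjusted p from 0.860 to 0.959 and from 0.945 to 0.974 with limma). Their signs changed with the setting in 1 or more alternatives for each of the 4 promoters.

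To locate these levels, the member CpGs were joined into runs, groups of at least 3 CpGs with neighbours at most 150 bases apart. The set held 267 such runs.

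At Ryr1 the 6 promoter CpGs at the first exon averaged 1.09% ± 1.58 (SD, n = 17), so the 20.3% came from the 2 remaining CpGs of the 8. At Cacna1e the 12 CpGs of the main upstream run averaged 1.24% ± 1.90 and the 3 at the first exon of the principal transcript 2.34% ± 3.81, and again the other CpGs carried the level. Scn8a, the channel of the axon initial segment and nodes of Ranvier, has 8 annotated transcript starts. Its 27 CpGs at the most upstream start averaged 1.24% ± 1.87, while the 12 at an internal start in the second exon averaged 46.3% ± 23.4 (n = 16).

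That Scn8a run was also the one that differed most from mouse to mouse among the promoter runs of 5 or more CpGs. The Young STD values were 51.6%, 72.7%, 56.9%, 19.4% and 61.4%. The Aged STD values of the 5 mice measured ran from 7.42% over a median of 26.2% to 63.8%, and the 6 Aged ENR values from 14.5% over 57.8% to 82.3%. The 3 groups overlapped over most of their range. Of the 54 runs of that size wholly inside promoters, the other 53 lay below 20%. A Cacnb3 run of 15 CpGs that reached past the promoter limit averaged 31.7% ± 11.3.

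Unmethylated stretches were not confined to promoters. Of 95 body runs with 5 or more CpGs, 30 averaged below 20%, 32 above 80% and 33 in between, and the 30 low ones were spread over 14 genes. Only 4 of the 30 overlapped the promoter of another annotated gene: 2 of Cacna1d beside Dcp1a and 2 of Cacna2d4 beside Lrtm2. The median CpG density was the same in the low and the high body runs, at 3.48 CpGs per 100 bases.

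The one with the most CpGs was the Cacna1a run printed above, 53 CpG positions over both strands in exon 19. It averaged 2.23% ± 2.41 (SD, n = 16). In Young STD mice it had 0.136%, 0.780%, 1.29%, 0.237% and 3.17%, in 6 Aged STD mice it ran from 0.347% over 3.31% to 7.51%, and in 5 Aged ENR mice from -0.495% over 1.28% to 5.43%. This coding stretch, 143946 bases from the nearest start, thus stood at or below 7.51% in each of the 16 mice measured. Exon 91 of Ryr1 held 2 such runs, with 4.14% ± 3.40 (25 CpGs, n = 19) and 3.16% ± 2.98 (9 CpGs, n = 13), whereas other exonic stretches of Ryr1 reached 91.9% ± 9.25 in exon 34 and 96.7% ± 3.76 around exon 4. In Scn4b the 9 intronic CpGs averaged 1.84% ± 2.51 (n = 18), and in Cacna2d2 the 17 CpGs around exon 37 of 39 averaged 4.84% ± 3.32 (n = 19).

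**Figure D3:**
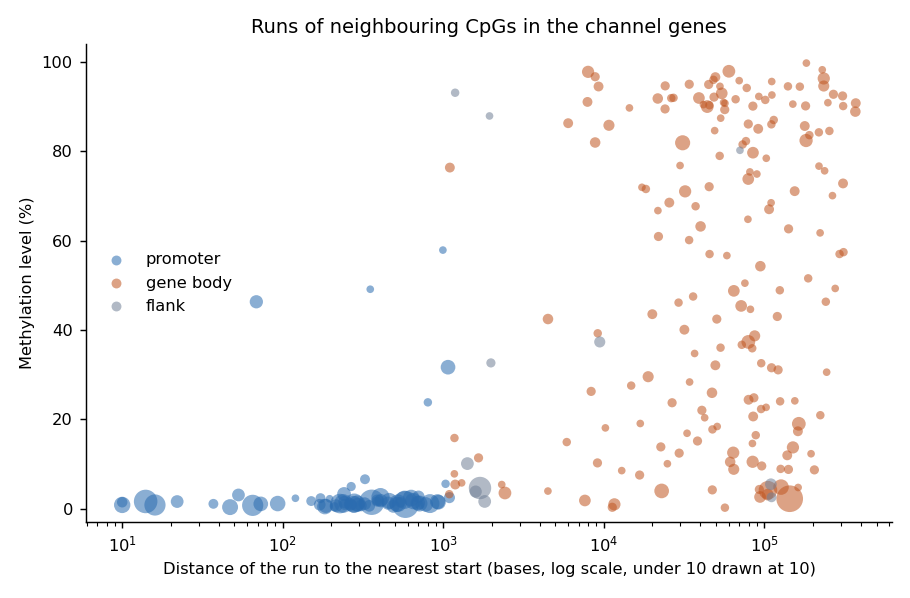
Each point is a run of neighbouring CpGs, placed by its distance in bases to the nearest start (log scale) and its level in percent over all mice, with a larger point for more CpGs. Promoter runs (blue) lie near 0 apart from a few, among them the Scn8a run at 46.3%, while gene body runs (orange) fill the whole range, with the Cacna1a run of 53 CpGs at the lower right, and flank runs are grey.

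The first comparison across groups asks whether methylation of these genes differed with age under standard housing. Of 1949 member CpGs tested in Aged STD against Young STD mice, 0 passed an adjusted p of 0.05 with a difference over 25 points (limma), as for 0 of all 527597 CpGs (0%). With a single prior variance in limma 120 of all CpGs were called and again 0 members. At an unadjusted p under 0.05 there were 103 member CpGs, 89 of them lower with age, where the background share was 4.42% and 17551 of all 23304 such CpGs were lower. With a composition index of each mouse, the mean Young STD level of the CpGs it yielded, as a term in the fit 57 of 97 member CpGs and 11158 of all 24707 were lower, and without the 3 Aged STD mice of low index 26 of 41 and 6716 of 12228. By size alone, 248 member CpGs differed by more than 25 points, 197 lower and 51 higher, beside background shares of 9.35% in all, 7.19% lower and 2.17% higher. The split was 171 lower and 93 higher with the index as a term, beside 30544 and 21172 of all CpGs. Without the 3 mice fewer CpGs were tested. The split was then 103 and 50 of 1386 member CpGs, beside 19722 and 12022 of all 396610. The CpGs with such differences were spread over the family: Cacna1c held 31, Cacna1i and Cacna2d2 17 each and Cacna1e 16.

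Gene bodies as a whole leaned to lower values with age. Of 35 bodies 29 were lower in the Aged STD mean, and 71.7% of all 13600 bodies were lower too. The median difference over the member bodies was -3.86 points, beside -2.85 points over all bodies. With plain means of the percents these medians were -9.73 and -4.89 points, and over the CpGs measured in every mouse, which left 15 member bodies, -6.85 and -1.70 points. None of the 35 passed the adjusted test with limma, nor did any of the 13600 (0%), and 7 reached an unadjusted p under 0.05, all of them lower, beside a background of 11.8%, or 1604 bodies of which 1456 were lower. With a single prior variance 12 did, beside 14.4% of all bodies, and 0 were called. Averaged over the 28 bodies measured in every mouse, Young STD mice had 53.4%, 54.1%, 54.4%, 55.6% and 58.8%. The Aged STD mice ran from 47.0% over a median of 52.1% to 56.7%, and the Aged ENR mice from 50.0% over 53.7% to 56.6%. The Aged STD range reached lowest and overlapped both other groups.

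By family, the Aged STD mean was the lower one in 9 of 9 calcium channel alpha1 bodies, 4 of 4 alpha2delta, 3 of 4 beta, 3 of 3 ryanodine receptor, 3 of 3 IP3 receptor, 2 of 3 HCN and 2 of 2 sodium channel beta bodies, and in 3 of 7 sodium channel alpha bodies. The family medians were -6.62 points for the alpha1 subunits, -12.0 points for the HCN channels and 0.686 points for the sodium channel alpha subunits. Promoters showed no such lean: 11 of 27 were lower, with a background of 50.4%, and the median difference was 0.0973 points. None was called with limma (0% of all promoters), and 1 had an unadjusted p under 0.05, Cacna1h with -2.24 points, beside a background of 5.91%. Body minus promoter was smaller in Aged STD mice in 25 of 27 genes, where 71.5% of all genes were smaller. None of these 27 passed the adjusted test with limma (0% of all genes), and 9 had an unadjusted p under 0.05, beside a background of 13.5%.

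The mice did not all yield the same kind of CpG. The composition index defined above was 31.6% ± 0.766 (SD, n = 5) in Young STD, 26.6% ± 6.91 (n = 7) in Aged STD and 29.5% ± 3.88 (n = 7) in Aged ENR mice, and it lay below 25% in 3 Aged STD mice (replicates 3, 4 and 6) and 1 Aged ENR mouse (replicate 4). Those 3 Aged STD mice were also the ones with the lowest mean over the member bodies, at 47.0%, 47.7% and 47.0%. Without them 26 of 35 bodies were lower, with a median of -2.53 points, and 1 reached an unadjusted p under 0.05. Over all bodies 60.7% were then lower, with a median of -1.03 points, and 6.54% had such a p. With the index as a term in the fit the member values were 26 of 35, -2.003 points and 1, and those over all bodies 60.8%, -1.09 points and 6.48%. Body minus promoter was smaller in 22 of 27 genes under both conditions, beside 61.5% of all genes without the mice and 61.8% with the index as a term. An unadjusted p under 0.05 was then reached by 2 genes without the mice, beside 7.42% of all genes, and by 1 with the index as a term, beside 7.21%. Member bodies were lower with age within both library series of the labels, by a mean of -4.23 points in series 27 and -5.11 points in series 37.

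**Figure D4:**
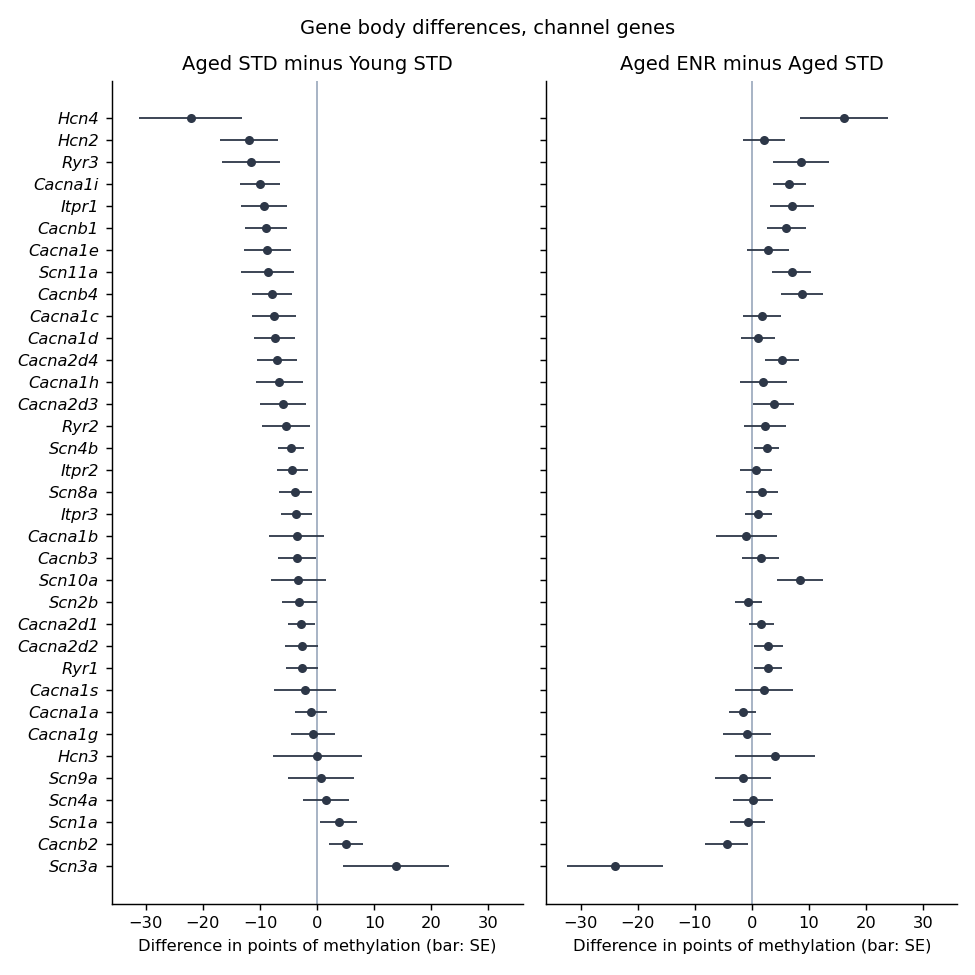
For each gene body the difference in points of methylation is shown with its standard error, Aged STD minus Young STD on the left and Aged ENR minus Aged STD on the right, with genes in the same order. Most points lie left of 0 in the first panel and right of 0 in the second, Scn3a stands on the other side in both, and the 2 panels share the Aged STD mice.

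Among bodies with 5 or more CpGs and a value in every mouse, Scn3a, Ryr3, Cacna1i and Itpr1 had the largest age differences. Scn3a encodes a sodium channel that is most abundant before and around birth. Its body, 8 CpGs on chromosome 2 between 65457118 and 65567627, had 27.4%, 35.2%, 57.8%, 38.8% and 27.9% in Young STD mice. Aged STD mice ran from 28.8% over 47.1% to 83.0%, and Aged ENR mice from 15.7% over 19.3% to 47.0%. The means were 37.4%, 51.2% and 27.3%, so the age difference was 13.8 ± 9.26 points (SE, adjusted p = 0.692 with limma), with 19.8 points in library series 27 and 6.22 points in series 37, and it ran from 8.50 to 18.9 points when single mice were left out. It was the widest spread of all bodies of the set, and the groups overlapped.

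Ryr3, a ryanodine receptor isoform found in parts of the brain, showed a tight young group. The Young STD values of its 22 body CpGs were 77.0%, 78.1%, 80.7%, 77.0% and 75.8%. The Aged STD values ran from 45.8% over 66.4% to 82.6% and the Aged ENR values from 62.2% over 76.9% to 81.8%. In Aged STD, 6 mice had lower and 1 had a higher value than any young mouse. The age difference was -11.6 ± 5.05 points (adjusted p = 0.569 with limma) and came to -4.52 points without the 3 mice of low index. It was -17.6 points in library series 27 and -3.37 points in series 37, and -6.47 points with a promoter of 500 bases, which leaves more CpGs to the body. The SD over mice was 1.84 in Young STD and 11.5 in Aged STD. A larger SD in Aged STD than in Young STD held for 17 of the 28 member bodies measured in all mice of both groups, and for 72.4% of all such bodies.

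Cacna1i, a T-type pore, was the body with the smallest unadjusted p in this comparison. Its 71 body CpGs averaged 53.9%, 55.5%, 55.4%, 66.7% and 65.2% in Young STD mice. They ran from 44.7% over 48.2% to 54.4% in Aged STD mice and from 50.7% over 54.8% to 64.1% in Aged ENR mice. Only the highest Aged STD mouse reached into the young range. The difference was -10.0 ± 3.45 points (adjusted p = 0.499 with limma), with -6.66 points in library series 27 and -15.2 points in series 37, and with -6.53 points over the CpGs measured in every mouse.

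Itpr1 is the IP3 receptor that is most abundant in neurons. Its 69 body CpGs averaged 58.8%, 58.6%, 59.2%, 63.3% and 65.7% in Young STD, from 41.7% over 50.5% to 62.0% in Aged STD and from 51.3% over 58.9% to 67.6% in Aged ENR mice. In 5 of the 7 Aged STD mice the value was under the young range. The difference was -9.29 ± 4.003 points (adjusted p = 0.568 with limma) and -6.67 points without the 3 mice of low index, and -16.1 points over the CpGs measured in every mouse. It was -5.74 points with the index as a term and -18.9 points with plain means.

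The Hcn4 and Hcn2 bodies fell outside the choice above because 1 Aged STD mouse had no value for either. Hcn4, the main HCN channel of the cardiac pacemaker and also found in brain, had the largest age difference of the whole set over its 8 body CpGs. Its Young STD values were 74.1%, 66.9%, 71.4%, 70.3% and 82.2%, and its Aged STD values ran from 22.0% over 54.3% to 78.2%. The difference was -22.2 ± 8.96 points (adjusted p = 0.560 with limma) and -9.80 points without the mice of low index. Hcn2, an HCN channel abundant in brain, differed by -12.0 ± 5.07 points over 22 CpGs (adjusted p = 0.564 with limma), and by -13.0 points without those mice.

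The second comparison sets enriched against standard housing in aged mice. Of 1966 member CpGs 0 passed the adjusted test with limma (0% of all 530258), and 59 had an unadjusted p under 0.05, beside a background of 2.25%. More than 25 points separated the groups at 200 member CpGs, 61 lower and 139 higher in Aged ENR mice, beside background shares of 7.15% in all, 2.62% lower and 4.53% higher. Without the 3 Aged STD mice of low index 68 of the 1400 member CpGs tested were that much lower and 71 that much higher. The counts over all 400492 CpGs were then 15512 and 12853. With the index as a term the split was 89 and 131, beside 18922 and 22443 of all CpGs. Of the 35 bodies 8 were lower in Aged ENR mice and 38.1% of all bodies were, and the member median was 2.05 points, beside 1.02 points over all bodies. Without the 3 Aged STD mice of low index 16 of the 35 were lower and the member median was 0.47 points, while 56.3% of all bodies were lower and their median was -0.487 points. Bodies called at an adjusted p under 0.05 were again 0 of 35 (0% of all), and 3 had an unadjusted p under 0.05, beside a background of 4.52%. These were Cacna1i and Cacnb4, higher in Aged ENR mice, and Scn3a, lower. Among promoters 0 of 27 were called (0%) and 1 had an unadjusted p under 0.05, beside 4.32%. Body minus promoter gave 0 calls (0%) and 1 gene with an unadjusted p under 0.05, beside 4.93%. With a single prior variance 6 bodies and 1 promoter had an unadjusted p under 0.05, beside 5.58% of all bodies and 3.19% of all promoters, and 0 were called. With the index as a term 1 body had such a p, beside 4.65% of all bodies. Without the 3 Aged STD mice of low index it was 1 body too, beside 4.07%.

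Scn3a, Cacnb4, Ryr3 and Scn10a had the largest housing differences by the same choice. Outside the choice, the Hcn4 body was higher in Aged ENR mice by 10.3 to 21.6 points when single mice were left out. Without the 3 Aged STD mice of low index no member body was higher by more than 5.10 points. The Scn3a body, with the values given above, differed by -23.9 ± 8.44 points (adjusted p = 0.945 with limma), with -34.9 points in library series 27 and -9.33 points in series 37. Values under the Aged STD range were found in 5 of the 7 Aged ENR mice. Within the gene, the intronic run of 4 CpGs printed above averaged 26.3% in Young STD, 45.0% in Aged STD and 26.3% in Aged ENR mice, with 4, 5 and 6 mice measured.

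Cacnb4, a beta subunit whose loss gives the lethargic mouse its ataxia and seizures, had a body of 43 CpGs. Young STD mice had 46.1%, 46.3%, 45.4%, 41.8% and 42.4%, Aged STD mice ran from 28.5% over 34.1% to 44.1%, and Aged ENR mice from 34.1% over 46.2% to 52.1%. The housing difference was 8.74 ± 3.74 points and the age difference -7.87 ± 3.52 points (adjusted p = 0.945 and 0.578 with limma). Both were smaller without the 3 mice of low index, at 5.10 and -4.23 points. In library series 27 they were 12.2 and -11.3 points and in series 37 4.18 and -3.03 points. Over the CpGs measured in every mouse the housing difference was 2.40 points, and with a promoter of 500 bases the values were 5.06 and -3.95 points. In an intronic run of 5 CpGs 8344 bases from its start (chr2:52668149-52668284), Young STD mice had 54.4%, 49.5%, 17.3%, 36.7% and 35.4%. The 5 Aged STD mice measured ran from -2.77% over 3.03% to 16.2%, and the 6 Aged ENR mice from 9.21% over 33.0% to 54.2%. This run was named after its values were seen, and its age difference was -33.7 points (adjusted p = 0.425 with limma over 70683 runs). How many of all runs have groups that do not overlap was not counted.

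The Ryr3 body differed by 8.59 ± 4.94 points (adjusted p = 0.945 with limma), and by 1.55 points without the 3 mice. It was 14.6 points in library series 27 and 0.62 points in series 37, ran from 5.20 to 11.3 points when single mice were left out, and came to 14.1 points over the CpGs measured in every mouse and 4.47 points with a promoter of 500 bases. The Scn10a body averaged 68.5% in Young STD, 65.2% in Aged STD and 73.7% in Aged ENR mice. The Young STD mice had 68.7%, 70.3%, 60.7%, 73.9% and 68.8%, and the others ran from 50.7% over 69.05% to 77.2% in Aged STD and 69.7% over 74.0% to 78.8% in Aged ENR. The housing difference of 8.46 ± 4.01 points was smaller than the range over the Aged STD mice (adjusted p = 0.945 with limma), and it was 4.39 points without the 3 mice of low index and 19.2 points with plain means.

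**Figure D5:**
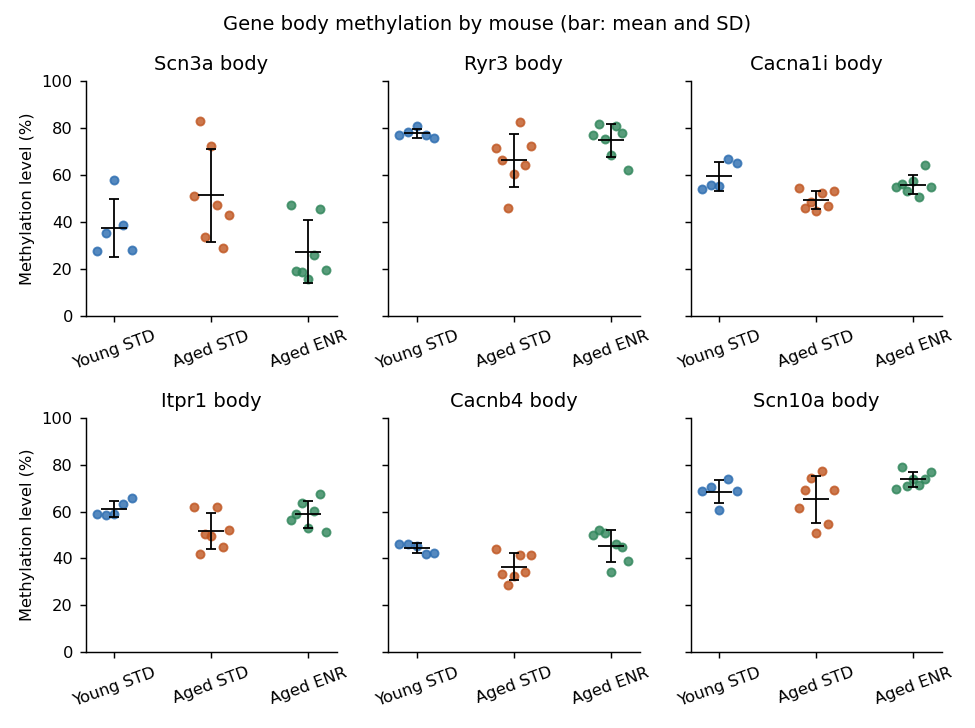
Points are mice, and the bar gives the mean and SD of each group for 6 gene bodies, in percent methylation. The Young STD mice lie close together for Ryr3 and Cacnb4, the Aged STD mice reach lower in all bodies but Scn3a, and the groups overlap in all 6.

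Aged ENR mice were last set beside Young STD mice, with the caution that this pair shares its mice with the comparisons above. Of 1934 member CpGs 0 passed the adjusted test with limma (0% of all 522275) and 120 had an unadjusted p under 0.05, where the background was 3.95%. By size, 198 differed by more than 25 points, 136 lower and 62 higher in Aged ENR mice, beside background shares of 7.6% in all, 5.21% lower and 2.39% higher. With the index as a term 139 were lower and 101 higher, beside 26888 and 19181 of all CpGs. Of the 35 bodies 27 were lower, beside 65.7% of all bodies, with a median of -2.12 points, beside -1.54 points over all bodies. These medians were -1.22 and -0.773 points with the index as a term, -4.13 and -2.40 points with plain means, and -4.20 and -0.831 points over the CpGs measured in every mouse. Of all 13721 bodies tested 0 were called (0%), and 2 member bodies, those of Cacna1d and Hcn2, had an unadjusted p under 0.05, beside a background of 8.79%. Of the 27 promoters 0 were called (0%) and 3 had an unadjusted p under 0.05, beside 5.43%. With a single prior variance these were 6 bodies and 1 promoter, beside 10.7% and 3.95% of all, and 0 were called. Without the aged mice of low index, of which 1 was in this comparison, they were 1 body and 1 promoter, beside 8.02% and 5.19%.

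As runs of neighbouring CpGs, 252 member runs could be tested in Aged STD against Young STD mice. None of them passed the adjusted test with limma, whereas 3 of all 70683 runs did (0.00424%), and 23 had an unadjusted p under 0.05, 19 of them lower with age, beside a background of 6.67%, or 4714 runs of which 3440 were lower. With the composition index as a term 22 had an unadjusted p under 0.05, 12 of them lower, beside 5.64% of all runs, or 3988 of which 1978 were lower. In Aged ENR against Aged STD mice 0 of 254 member runs were called (0%) and 9 had an unadjusted p under 0.05, beside 4.06%, and in Aged ENR against Young STD mice 0 of 257 (0%) and 14, beside 6.01%. With the index as a term the counts at this unadjusted p were 11, beside 4.56%, and 8, beside 5.51%. A Cacna1g run of 4 CpGs upstream of its start (chr11:94474852-94475060), chosen after its values were seen, had 22.1%, 21.1%, 32.4%, 26.3% and 17.1% in Young STD mice. In the 6 Aged STD mice measured it ran from 0% over 10.3% to 20.3% and in the 6 Aged ENR mice from 18.1% over 40.9% to 50.0%. The housing difference was 28.5 points (adjusted p = 0.935 with limma over 70714 runs), against a difference of 1.69 ± 0.711 points over the whole Cacna1g promoter of 49 CpGs.

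Single CpGs whose groups did not overlap were rare. Among CpGs with a value in every mouse compared, 1 of 262 member CpGs separated Aged STD from Young STD mice, beside 0.432% of all such CpGs. It lies in an intron of Cacna1e, the R-type pore, at position 154419094 of chromosome 1 on the minus strand, and its surroundings are shown because it is the one member CpG at which these groups did not overlap.
Cacna1e chr1:154419064-154419124: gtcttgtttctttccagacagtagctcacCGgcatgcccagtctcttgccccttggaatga

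The Young STD values at this CpG were 97.7%, 79.6%, 100%, 89.4% and 100%, and the Aged STD values ran from 22.2% over 44.7% to 65.8%. The difference was -49.7 ± 10.1 points (adjusted p = 0.742 with limma). The 6 Aged ENR mice measured ran from 15.4% to 100% and overlapped both groups. Aged ENR and Aged STD mice were separated at 0 of 260 member CpGs, beside a background of 0.0162%.

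Aged ENR and Young STD mice were separated at 1 of 312 member CpGs, beside 0.323% of all. It lies in the promoter of Scn9a, a sodium channel best known from pain neurons, 453 bases downstream of the start, at position 66634200 of chromosome 2 on the plus strand.
Scn9a chr2:66634170-66634230: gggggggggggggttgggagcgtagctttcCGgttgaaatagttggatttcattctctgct

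Young STD mice had 16.0%, 15.7%, 6.52%, 13.4% and 12.3% there. The Aged STD mice ran from 0% over 3.12% to 8.33% and the Aged ENR mice from 0% over 0% to 3.61%. The Aged ENR difference from Young STD mice was -12.0 ± 2.12 points (adjusted p = 0.640 with limma).

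The other genes of calcium and sodium signalling, a list of 49 such as the Stim and Orai genes of store-operated entry, the calcium pumps, calmodulins and Trpc channels, stood much like the channel genes. Promoters were measured for 40 of them, with a median of 1.57%, and bodies for 43, with a median of 54.4%. Promoters above 20% were those of Slc8a1, Fgf13 and Trpc5, at 23.0%, 22.0% and 25.4%. In Aged STD against Young STD mice 31 of 41 bodies and 21 of 39 promoters were lower, with medians of -4.71 and -0.147 points. In Aged ENR against Aged STD mice 11 of 41 bodies were lower, with a median of 1.99 points. None passed the adjusted test with limma in either comparison (0% of all bodies and promoters), and 9 bodies had an unadjusted p under 0.05 with age and 0 with housing, beside 11.8% and 4.52% of all bodies.

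Cell type markers were read by their promoters. Those of granule neurons (Prox1, Neurod1, C1ql2 and Dsp) were unmethylated, from 1.30% to 2.19%. Of the glial markers, Mag of oligodendrocytes stood at 48.6%, Aldh1l1 and Aqp4 of astrocytes at 25.4% and 15.6%, and P2ry12 and Tmem119 of microglia at 14.9% and 4.80%, while Mbp, Slc1a3 and Gjb6 lay below 5%. With age, the microglial promoters differed by -10.3 and -2.12 points, the oligodendrocyte ones by -13.2 and 0.172 points, the astrocyte ones by -7.29 to 0.485 points and the granule neuron ones by -0.621 to 3.81 points. None passed the adjusted test with limma or had an unadjusted p under 0.05, and the part of cell composition in the body differences was not tested.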

How the data were processed

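RRBS libraries of single dentate gyri were read as 75-base single reads. The study's methods describe trimming (Trim Galore, Cutadapt), alignment to mm10 (Bismark) and methylation calling (methylKit), and the submitters' processing notes name the versions Trim Galore 0.4.0, Cutadapt 1.8.1, Bismark 0.16.1 and methylKit 1.5.2. The methods name other versions of Trim Galore and Bismark than these notes. The authors deposited the percent methylation of each cytosine in each of 19 mice, kept where 10 or more reads covered it. Read numbers are not part of the table, so the depth of a value is unknown, no interval or test on reads could be made, and the number of mice limits the precision. Mice had values at 64.3% to 95.2% of the CpGs and at 1598 to 2524 of the 2626 member CpGs, of which 215 were measured in all 19 mice.

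Promoter, body and flank were assigned from GENCODE M21. Regions of at least 3 CpGs, runs and single CpGs were fitted with limma 3.58.1 (R 4.3.3) on the percent scale with a trended prior variance, two-sided, on the mice of the groups compared, with Benjamini-Hochberg adjustment over the whole table. In simulated data for Aged STD against Young STD, 127 of 200 regions altered by 20 points were recovered among 31956, with 11 false calls. The noise was drawn for each region on its own, without a shift shared by a mouse's regions. Altered regions came from promoters and bodies together, so the recovery among bodies alone, which vary more between mice, is not known. Groups came from the labels, and each mouse is a separate animal. CpGs compared for overlap had a value in every mouse compared.

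Members and lists were chosen with earlier results of these data known. By the rule for names, values by mouse are given for the 4 bodies or promoters of largest difference with age and with housing (5 or more CpGs, a value in every mouse), the 4 highest promoters and CpGs whose groups do not overlap. The 4 largest and smallest body-minus-promoter differences are named with their means. The HCN bodies and the runs were named after their values were seen. Alternatives were a single prior variance, library series or composition index as a term, a replicate block, plain means, only CpGs measured in every mouse, at least 5 CpGs, a promoter of 500 bases, other size limits and leaving out each mouse. Runs, bodies without other genes' promoters, and the omission of mice of low index were added after seeing the data.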

Additional observations from a re-analysis of the deposited data

Results flagged for a closer look

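Of 36 groups of values by mouse examined for a mouse far from the others, 1 stood out, where chance marks about 1 in 20. The Cacna1e promoter was at 17.98% in Aged ENR replicate 5, the other 6 Aged ENR mice lay between 6.07% and 10.2%, and the gap to the nearest of them was 0.656 of the group's range. Without that mouse the Aged ENR minus Aged STD difference of this promoter went from 1.09 to -0.235 points, and it was called in neither case.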

How the results depend on the processing

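Under the settings tried, apart from leaving out single mice, 384 values kept their direction and their side of the threshold, 14 counts or values moved and 20 reversed. No member region or member CpG was called between groups under any of them. Outside the set, 1 promoter was called for Aged ENR against Young STD mice with the library series as a term, and with a single prior variance 120 CpGs were called with age, 26 with housing and 92 in the remaining comparison. The cause of the shifts was not tested. With age, 248 of 1949 member CpGs differed by over 25 points, 524 by over 15 and 117 by over 35 points. Over 25 points were reached by 7 of 184 with only CpGs measured in every mouse. Without the 3 Aged STD or the 4 aged mice of lowest index they were reached by 153 of 1386. For Aged ENR against Aged STD mice 200 of 1966 differed by over 25, 482 by over 15 and 89 by over 35 points. With CpGs of every mouse 1 of 187 differed by over 25 points. For Aged ENR against Young STD mice these counts were 198, 479 and 82 of 1934, and 4 of 184. With plain means of the percents, which mix levels of different CpGs, the median member body difference was -9.73 points with age and 5.18 points with housing, beside -4.89 and 2.05 points over all bodies, and the age difference came to -10.2 points for the Scn8a promoter, -13.1 points for the Scn10a body and 8.83 points for the Scn3a body. With the index as a term the age difference was -4.49 points for the Ryr3 body, -4.69 points for Cacnb4 and -12.3 points for Hcn4, and the Ryr3 housing difference 5.08 points. Only 5 genes could be tested for body minus promoter with CpGs measured in every mouse, and the 500-base promoter turned Scn4b to -3.03 points.

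Of the reversals with age, without the 3 or the 4 mice of low index the Cacna1e promoter came to 0.914, the Scn8a promoter to 1.805 and the Scn10a body to 0.792 points, and with the index as a term to 1.04, 1.52 and 0.979 points. The Scn8a promoter was at 1.95 points with CpGs of every mouse, the Scn4b promoter at -0.372 points with plain means and -0.738 points with 500 bases. With housing the Cacna1e promoter came to -0.493 and -0.425 points without the 3 and the 4 mice and the Scn8a promoter to -0.538 points without the 3 and -0.0745 points with CpGs of every mouse, while the Ryr1 promoter came to 0.728 points with 500 bases and the Scn4b promoter to 1.10 points with plain means. Leaving out 1 mouse moved the Cacna1e promoter from -1.56 to 0.195 points with age and from -0.235 to 1.98 points with housing, the Scn4b promoter from -0.174 to 0.429 and from -0.483 to 0.0555 points, the Ryr1 promoter from -2.35 to -0.108 and from -3.89 to -1.36 points, the Scn8a promoter from -5.68 to -0.871 and from 1.58 to 5.73 points, the Scn10a body from -5.28 to -0.861 points with age, and the Hcn2 body from -0.140 to 3.59 points with housing.

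The replicate numbers did not pair the mice: correlations of deviations between same-numbered mice ran from -0.132 to 0.0955. With the replicate number as a block 0 member regions were called, 3 of 35 bodies in place of 7 had an unadjusted p under 0.05 with age, and the Ryr1 promoter reversed to 0.540 points. Depth could not be weighed, since the table gives no reads.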
